A study of Mus musculus with 16 samples.

Results

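The 39 interferon-stimulated genes described here were listed by name and found in a table of 54752 gene IDs from mouse iWAT (inguinal white adipose tissue), a fat depot under the skin of the groin. All 39 had enough counts to test, among 19736 genes that did. The RNA-seq series held 16 libraries, 4 from each of 4 genotypes, labelled as female C57BL/6 mice 90 days old. The WT genotype is without either change. The Lepob/+ genotype is heterozygous for the obese allele of the leptin gene, the SOD1-G93A genotype has many copies of a transgene for a mutant human superoxide dismutase that causes amyotrophic lateral sclerosis (ALS), and SOD1-G93A Lepob/+ combines the 2. The replicates are separate mice. The transgene is a human gene and the obese allele a point mutation, so neither was checked in the counts of the mouse genes.

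Interferons are secreted when cells sense viral or misplaced nucleic acid, or, for interferon gamma, when lymphocytes are activated. Type I interferons bind a receptor whose kinases activate a complex that holds STAT2 and IRF9 and binds a DNA sequence called the interferon-stimulated response element, whereas interferon gamma acts at another sequence, the gamma-activated site. The genes that follow encode sensors, transcription factors, antiviral proteins and chemokines, and in adipose tissue they are expressed by adipocytes, vessels and resident immune cells alike. In bulk tissue, fewer cells of a type and less RNA per cell cannot be told apart.

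Most of the promoters at hand carry letters through which the family is known to be switched on. A promoter window, 250 bases before to 50 bases after a start site in the RefSeq annotation of GRCm38.p6, was at hand for 30 of the 39 members. The core of the response element, GAAANNGAA on either strand with overlaps counted, was present in 18 of the 30 members (60.0%) and in 9.76% of 27025 genes with a window. The core of the gamma-activated site, TTCNNNGAA on either strand, was present in 8 of 30 members (26.7%) against 9.55% of all genes. In Bst2 and Ifitm3 matches of the 2 motifs overlap each other. Windows are shown for the genes whose values lead the account below: Isg15, 3 of the Ifit genes and Cxcl10 with matches of the response element in capitals, and Psmb8 with the match of the gamma-activated site in capitals. They lie at chr4:156200769-156201068 (minus strand) for Isg15, chr19:34640639-34640938 (plus) for Ifit1, chr19:34583279-34583578 (plus) for Ifit3, chr19:34607707-34608006 (plus) for Ifit3b, chr5:92348840-92349139 (minus) for Cxcl10 and chr17:34197945-34198244 (plus) for Psmb8.
Isg15: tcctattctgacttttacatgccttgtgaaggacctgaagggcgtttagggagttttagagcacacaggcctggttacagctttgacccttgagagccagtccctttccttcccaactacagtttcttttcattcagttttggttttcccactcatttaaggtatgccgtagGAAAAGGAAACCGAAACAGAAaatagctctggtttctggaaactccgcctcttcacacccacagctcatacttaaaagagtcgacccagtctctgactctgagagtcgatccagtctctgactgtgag
Ifit1: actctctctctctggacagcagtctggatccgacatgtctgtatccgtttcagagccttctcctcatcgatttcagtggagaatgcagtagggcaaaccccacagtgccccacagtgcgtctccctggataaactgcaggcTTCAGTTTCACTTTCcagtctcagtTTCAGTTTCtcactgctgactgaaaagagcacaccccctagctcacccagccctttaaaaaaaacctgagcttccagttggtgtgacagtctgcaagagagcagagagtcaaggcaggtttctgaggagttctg
Ifit3: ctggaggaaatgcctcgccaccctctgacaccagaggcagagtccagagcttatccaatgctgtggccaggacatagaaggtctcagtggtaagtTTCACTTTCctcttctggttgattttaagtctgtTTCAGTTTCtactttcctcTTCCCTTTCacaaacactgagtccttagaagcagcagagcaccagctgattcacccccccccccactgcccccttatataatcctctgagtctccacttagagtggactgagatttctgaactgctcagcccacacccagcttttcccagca
Ifit3b: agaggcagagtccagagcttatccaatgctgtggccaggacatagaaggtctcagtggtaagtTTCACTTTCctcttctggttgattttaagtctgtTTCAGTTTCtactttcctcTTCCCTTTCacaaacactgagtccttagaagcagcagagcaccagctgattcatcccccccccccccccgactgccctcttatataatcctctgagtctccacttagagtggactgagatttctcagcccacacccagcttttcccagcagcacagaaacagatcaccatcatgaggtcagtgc
Cxcl10: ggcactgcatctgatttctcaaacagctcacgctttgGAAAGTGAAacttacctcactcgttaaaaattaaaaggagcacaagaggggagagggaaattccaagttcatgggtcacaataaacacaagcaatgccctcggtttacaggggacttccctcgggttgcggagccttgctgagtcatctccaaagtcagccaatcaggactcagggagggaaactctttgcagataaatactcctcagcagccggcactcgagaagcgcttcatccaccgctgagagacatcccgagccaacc
Psmb8: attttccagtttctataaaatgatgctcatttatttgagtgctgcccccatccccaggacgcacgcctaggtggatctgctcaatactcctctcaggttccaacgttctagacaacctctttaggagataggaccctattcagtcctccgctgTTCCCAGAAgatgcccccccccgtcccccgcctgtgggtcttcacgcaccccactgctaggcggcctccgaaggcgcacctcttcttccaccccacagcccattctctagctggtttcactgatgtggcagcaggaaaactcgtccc

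Isg15 held 3 matches that overlap in a single run, the first 78 bases before the start site. Ifit1, Ifit3 and Ifit3b held 3 matches each, all on the opposite strand. The Ifit3 and Ifit3b windows were 75.0% identical over 268 bases when shifted by 32 bases with no gaps allowed. A run of C is longer in Ifit3b, so bases after it were out of line in this count. Cxcl10 held 1 match, 213 bases before its start. Psmb8, a subunit of the immunoproteasome that cuts peptides for antigen presentation, held the gamma-activated site 97 bases before its start and no response element in this window. In all, 11 members held 2 or more matches of the response element, and 7 members with a window held neither motif. A match of letters is a description and does not show that a factor binds there.

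**Figure D1:**
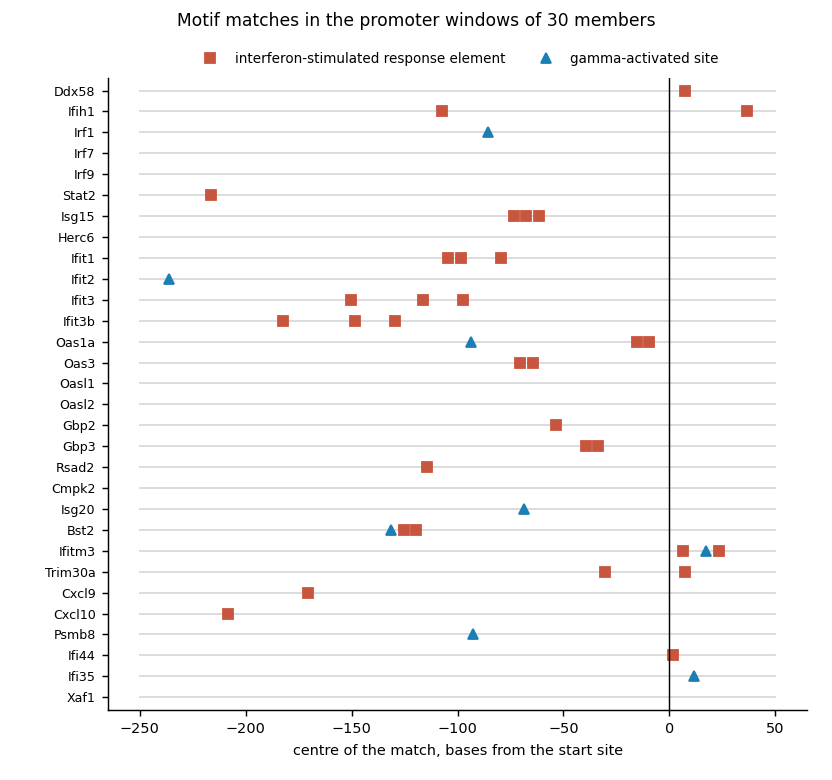
Matches of the 2 motifs in the promoter windows of the 30 members that have one, by the distance of the match's centre from the start site in bases. Squares mark the interferon-stimulated response element, in 18 members, and triangles the gamma-activated site, in 8 members.

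Library totals ran from 36795376 to 61886313 counts. Adipocyte marker genes averaged 9.74 to 10.9 log2 CPM (counts scaled to library size) in the 16 libraries, so all of them held fat. They differed in a second tissue: 10 genes that mark lymph nodes (their stroma and high endothelial venules) averaged 4.20 to 5.02 log2 CPM in 6 libraries (WT 1 and 2, Lepob/+ 3, SOD1-G93A 1, 2 and 4) and -1.72 to -0.37 in the other 10, which include all 4 SOD1-G93A Lepob/+ libraries. Skeletal muscle genes averaged 12.8 log2 CPM in Lepob/+ 4, 7.10 in WT 3, 4.34 in SOD1-G93A 4, 3.84 in SOD1-G93A Lepob/+ 1 and 3.66 in SOD1-G93A 2, against -0.55 to 0.42 in the others. The library labelled SOD1-G93A Lepob/+ 3 held 0 counts of Xist and 1756 counts of Y-linked genes, against 11895 to 28034 Xist counts and 0 Y-linked counts in the others, so it goes against its label of female.

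Most of the 39 genes varied in a like way from mouse to mouse, and no member had more than 41.2% of its variance between genotypes. Their mean level in WT libraries 1 to 4 was 4.89, 5.51, 4.72 and 5.43 log2 CPM. In Lepob/+ libraries it was 5.65, 6.42, 4.57 and 5.51, and in SOD1-G93A libraries 4.76, 6.41, 4.92 and 5.65. In SOD1-G93A Lepob/+ libraries it was 5.62, 5.97, 5.11 and 5.19. The highest libraries were thus Lepob/+ 2 and SOD1-G93A 2 and the lowest was Lepob/+ 3, and every genotype overlapped every other. In each genotype replicate 2 was the highest library. The group means were 5.14 ± 0.39 (SD, n = 4) in WT, 5.54 ± 0.76 in Lepob/+, 5.43 ± 0.75 in SOD1-G93A and 5.47 ± 0.40 in SOD1-G93A Lepob/+.

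**Figure D2:**
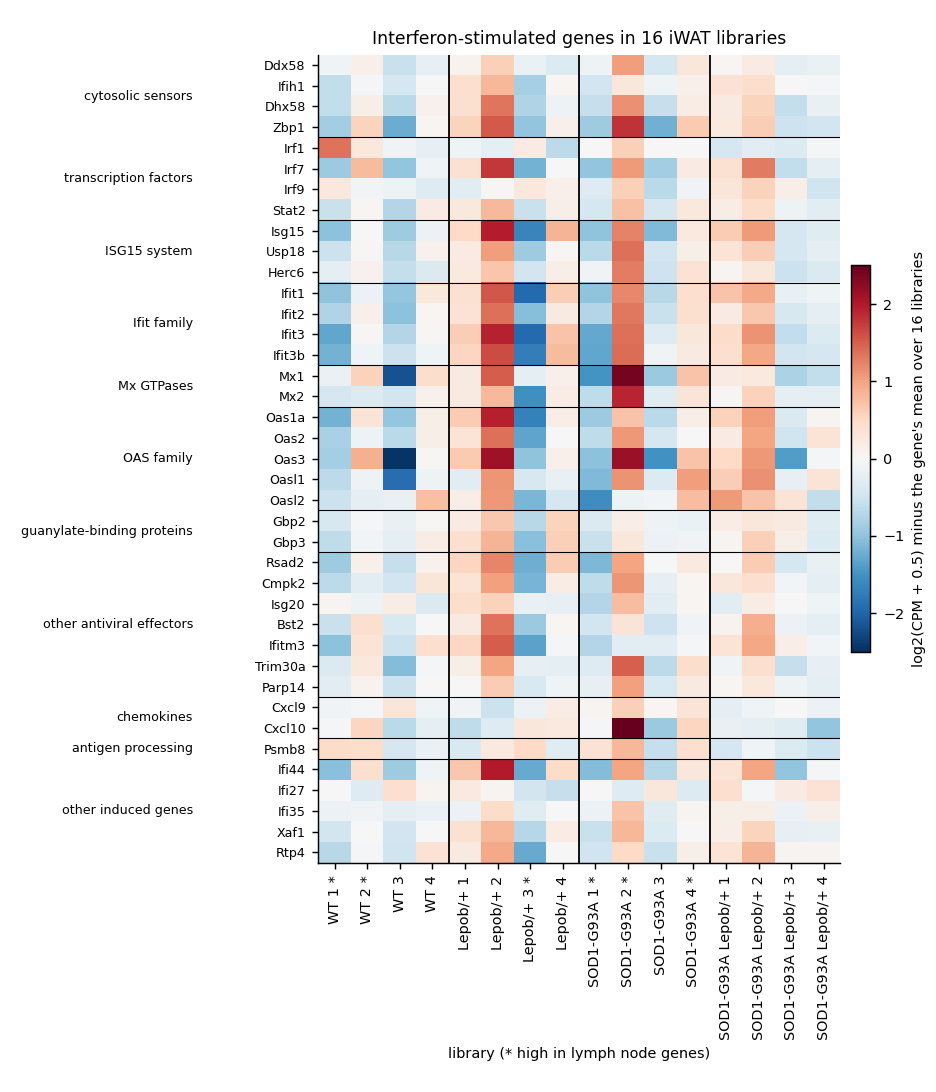
Level of each of the 39 genes (rows, grouped by role) in the 16 libraries (columns, grouped by genotype) as log2(CPM + 0.5) minus the gene's mean over the libraries. Red is above and blue below that mean, and an asterisk marks the 6 libraries high in lymph node genes. The Lepob/+ 2 and SOD1-G93A 2 columns are red for most genes and the Lepob/+ 3 column blue.

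Of the 39 genes, 20 were highest in Lepob/+ 2 and 16 in SOD1-G93A 2, together 92.3% of the members against 26.0% of all genes tested. These were the top pair of libraries for 22 members (56.4%) against 1.09% of all genes. Lepob/+ 3 was lowest for 22 members (56.4% against 12.0% of all genes) and WT 3 for 9. The median SD of a member over the 16 libraries was 0.64 log2 CPM, against 0.42 over all genes, and a median of 10.9% of a member's variance lay between genotypes, against 20.4%. These libraries were singled out after the values were seen, so the shares describe them and are no test.

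Macrophage genes followed the members in part. The 13 genes averaged 7.73 log2 CPM in Lepob/+ 2, the highest of all libraries, and 5.39 to 5.80 in WT 1 and 3, Lepob/+ 3 and SOD1-G93A 1, the 4 lowest libraries for these genes and for the members alike. They departed from the members in SOD1-G93A 2 (6.27), which lies below 10 of the other libraries. SOD1-G93A 2 was highest in the lymph node list (5.02), the T cell list (6.64) and the B cell list (7.82), whereas Lepob/+ 2 stood at -0.91, -0.10 and 0.63 in these. Lepob/+ 3, the lowest library for the members, was also high in lymph node genes (4.53). The part of these cells in the members' levels was not tested.

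**Figure D3:**
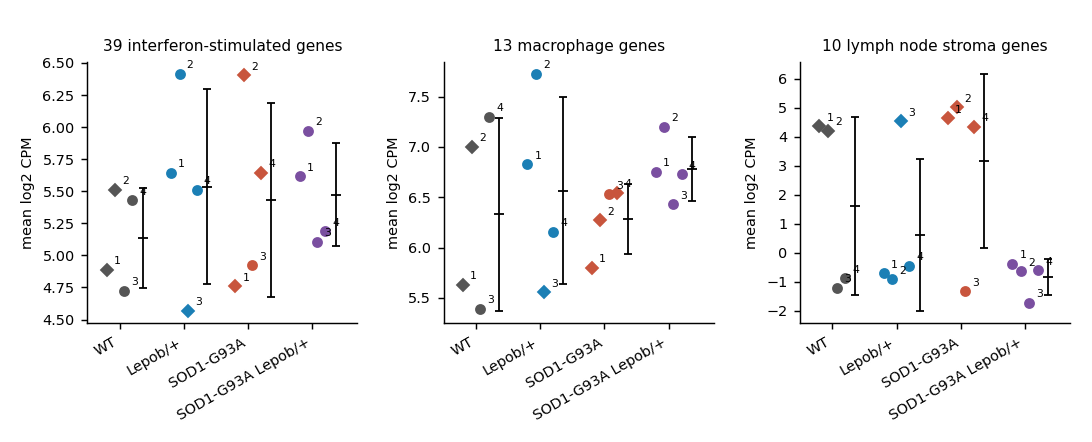
Mean log2 CPM of the 39 members, of 13 macrophage genes and of 10 lymph node stroma genes in each library. Points are libraries numbered by replicate, diamonds are the 6 libraries high in lymph node genes, and black bars give the mean ± SD of each genotype (n = 4). The members peak at 6.42 and 6.41 in Lepob/+ 2 and SOD1-G93A 2, which differ in the other lists.

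No member passed an adjusted p of 0.05 by edgeR's quasi-likelihood test in any of the 5 comparisons, and neither did any other gene (0% called in each). At an unadjusted p under 0.05 the same test had 0 members for Lepob/+ against WT, where 4.37% of all genes passed, 1 of 39 for SOD1-G93A against WT (2.56% of all genes), 3 of 39 for SOD1-G93A Lepob/+ against SOD1-G93A (16.5%), 0 for SOD1-G93A Lepob/+ against Lepob/+ (8.24%) and 0 for the interaction of both mutations (7.98%). Without Lepob/+ 3 there were 16 members for Lepob/+ against WT, 15 of them higher, where 11.4% of all genes passed. Leaving out each of the 16 libraries in turn gave 0 to 16 members, and this was the highest count. Lepob/+ 3 was also the lowest library for 22 members, so the count is a description and no test. The paired comparisons share libraries, so their values are not independent of each other. CPM values of the 4 and 4 libraries were separate for 0 members in Lepob/+ against WT (0.907% of all genes), in SOD1-G93A against WT (2.05%) and in SOD1-G93A Lepob/+ against Lepob/+ (2.35%). In SOD1-G93A Lepob/+ against SOD1-G93A they were separate for 2 members, Irf1 and Cxcl9 (5.13% of members against 7.18% of all genes).

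Relative to WT, Lepob/+ mice had 34 members with a higher estimate and 5 with a lower one, with a median log2 fold change of 0.50 beside 0.03 over all genes. All 4 cytosolic sensors, all 4 Ifit genes and all 5 OAS genes had higher estimates, none of them past the test. SOD1-G93A mice had 33 higher and 6 lower estimates, with a median of 0.44 beside 0.02. Without SOD1-G93A 2 that median was -0.04, and without Lepob/+ 2 the median for Lepob/+ was 0.14. SOD1-G93A Lepob/+ mice had 17 higher and 22 lower estimates relative to SOD1-G93A (median -0.05 beside 0.00), which became 0.36 without SOD1-G93A 2. Relative to Lepob/+ they had 7 higher and 32 lower (median -0.17 beside -0.06), which became 0.15 without Lepob/+ 2. For the interaction 6 estimates lay above 0 and 33 below (median -0.59 beside -0.10). That median was -0.17 without SOD1-G93A 2, and 0.17 without Lepob/+ 2 and SOD1-G93A 2, a choice made after seeing the data. Of all 19736 genes tested, 10969 were higher in Lepob/+ and 10459 in SOD1-G93A, each against WT. In SOD1-G93A Lepob/+, 9853 were lower against SOD1-G93A and 11429 against Lepob/+. For the interaction 11340 lay below 0. Most members varied in a like way from mouse to mouse, so their counts of direction are not separate results.

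**Figure D4:**
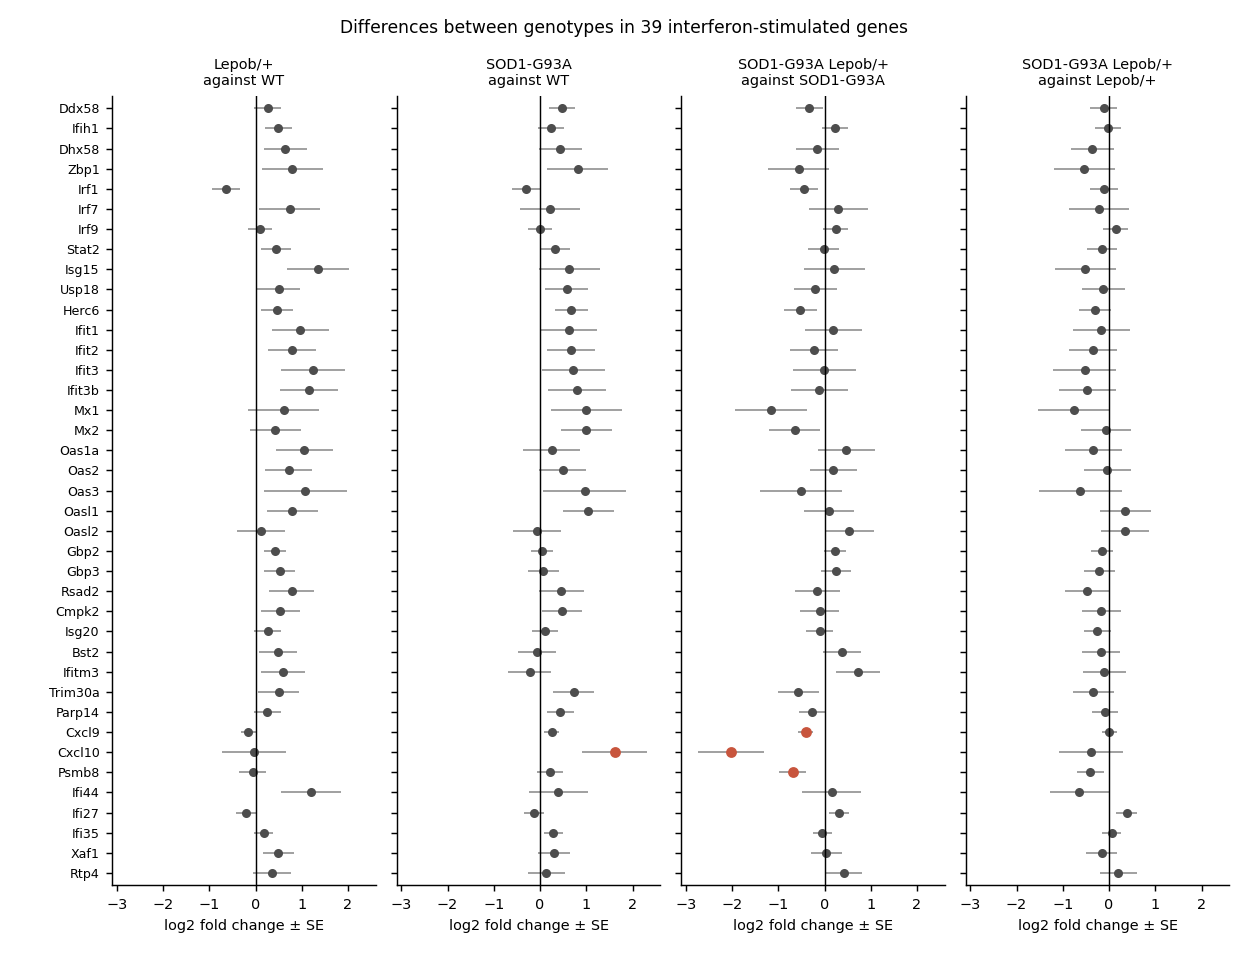
Log2 fold change ± SE of the 39 members in 4 comparisons by edgeR. Red points have an unadjusted p under 0.05: Cxcl10 in SOD1-G93A against WT, and Cxcl9, Cxcl10 and Psmb8 in SOD1-G93A Lepob/+ against SOD1-G93A. No point has an adjusted p under 0.05.

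Among the sensors, Ddx58 encodes RIG-I, which detects viral RNA ends. It stood at 63.8, 75.2, 46.6 and 59.9 CPM in WT, 73.6, 104.9, 61.6 and 54.3 in Lepob/+, 63.7, 143.1, 50.8 and 83.8 in SOD1-G93A and 71.7, 80.1, 58.2 and 61.4 in SOD1-G93A Lepob/+. SOD1-G93A 2 was far above the rest and Lepob/+ 2 next, and the genotypes overlapped. Its log2 fold change in SOD1-G93A against WT was 0.48 (SE 0.29, adjusted p = 0.9985). The sensors Ifih1, Dhx58 and Zbp1 spanned 27.4 to 87.7, 18.4 to 79.8 and 17.9 to 152.2 CPM over the 16 libraries.

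Among the transcription factors, Irf1 set itself apart from the rest of the family. It is a textbook target of interferon gamma, and its window held a gamma-activated site match 90 bases before the start. It read 139.0, 64.9, 50.3 and 46.6 CPM in WT, 50.4, 45.8, 62.5 and 34.3 in Lepob/+, 54.7, 81.5, 53.4 and 54.1 in SOD1-G93A and 40.2, 44.1, 42.5 and 52.1 in SOD1-G93A Lepob/+. All 4 SOD1-G93A libraries lay above the SOD1-G93A Lepob/+ libraries, with a log2 fold change of -0.45 (SE 0.30, unadjusted p = 0.161 by edgeR). In Lepob/+ against WT it was -0.64 (SE 0.30, adjusted p = 0.9997), the smallest p of any member there, which was -0.17 without WT 1. Irf7, the factor that amplifies interferon alpha transcription, read 37.8, 124.0, 35.8 and 66.9 CPM in WT, 93.7, 244.4, 31.4 and 70.9 in Lepob/+, 36.1, 149.9, 39.2 and 83.1 in SOD1-G93A and 94.0, 177.7, 46.4 and 61.3 in SOD1-G93A Lepob/+. Its highest library was Lepob/+ 2 and its lowest Lepob/+ 3, so a single genotype held both ends. Irf9 and Stat2, which act in the complex at the response element, spanned 35.2 to 85.6 and 42.4 to 124.7 CPM.

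The ISG15 system tags proteins with a small ubiquitin-like protein. Isg15 itself, at chr4:156199424-156200818 (minus strand, GRCm38), read 12.3, 25.5, 13.5 and 23.0 CPM in WT, 36.2, 100.1, 7.72 and 46.5 in Lepob/+, 12.5, 60.9, 11.6 and 30.3 in SOD1-G93A and 39.8, 53.9, 18.9 and 20.6 in SOD1-G93A Lepob/+. Lepob/+ held both the highest and the lowest library, 12.96-fold apart, and all genotypes overlapped. Its log2 fold change in Lepob/+ against WT was 1.36 (SE 0.67, adjusted p = 0.9997), and 0.70 without Lepob/+ 2. Usp18, the protease that removes the tag and dampens the receptor, read 23.6, 35.1, 21.4 and 37.4 CPM in WT, 40.2, 72.4, 18.5 and 35.7 in Lepob/+, 21.6, 91.0, 24.8 and 38.3 in SOD1-G93A and 43.8, 53.6, 25.9 and 29.0 in SOD1-G93A Lepob/+. Herc6, the mouse ligase that attaches it, read 20.5, 26.5, 15.96 and 18.8 CPM in WT, 28.9, 39.5, 17.4 and 27.2 in Lepob/+, 22.8, 59.7, 17.0 and 31.4 in SOD1-G93A and 25.6, 29.7, 16.7 and 19.0 in SOD1-G93A Lepob/+. Both peaked in SOD1-G93A 2.

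The Ifit proteins bind RNA that lacks host caps, and the 4 listed genes lie near each other on chromosome 19 (Ifit3 at chr19:34583531-34588731, plus strand, GRCm38). Ifit3 read 34.7, 88.2, 51.7 and 88.2 CPM in WT, 132.3, 326.3, 22.1 and 140.8 in Lepob/+, 35.0, 223.9, 68.6 and 105.5 in SOD1-G93A and 118.3, 188.8, 56.0 and 67.5 in SOD1-G93A Lepob/+. Ifit3b read 13.9, 29.6, 21.8 and 29.8 CPM in WT, 46.4, 99.7, 9.25 and 55.5 in Lepob/+, 12.7, 84.8, 30.2 and 37.2 in SOD1-G93A and 42.8, 62.9, 22.9 and 23.7 in SOD1-G93A Lepob/+. The pair peaked in the same library, Lepob/+ 2, and was lowest in the same library, Lepob/+ 3. They are near copies whose reads may be shared, so their separate values are uncertain. The log2 fold change in Lepob/+ against WT was 1.24 (SE 0.69) for Ifit3 and 1.15 (SE 0.63) for Ifit3b, both with an adjusted p of 0.9997. Without Lepob/+ 2 that of Ifit3b was 0.64. Ifit1 and Ifit2 spanned 9.98 to 117.6 and 18.7 to 103.0 CPM.

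The Mx proteins are GTPases that trap viral particles, and C57BL/6 mice carry a Mx1 allele that makes no working protein. Mx1 read 14.4, 24.3, 3.23 and 22.2 CPM in WT, 19.0, 47.3, 13.6 and 17.8 in Lepob/+, 5.42, 87.6, 8.30 and 27.1 in SOD1-G93A and 18.7, 19.4, 9.14 and 10.5 in SOD1-G93A Lepob/+. Mx2 read 5.59, 5.96, 5.45 and 8.22 CPM in WT, 8.99, 13.8, 2.31 and 8.73 in Lepob/+, 4.71, 30.0, 6.13 and 9.63 in SOD1-G93A and 7.79, 11.6, 6.42 and 6.43 in SOD1-G93A Lepob/+. Both were highest in SOD1-G93A 2. Their log2 fold changes in SOD1-G93A against WT were 1.00 (SE 0.78) and 1.00 (SE 0.56), and that of Mx2 was 0.11 without SOD1-G93A 2.

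The OAS enzymes sense double-stranded RNA and switch on RNase L, and Oasl1 is a catalytically dead relative that restrains Irf7 translation. Oasl1 read 7.97, 11.8, 3.07 and 11.8 CPM in WT, 10.6, 28.4, 9.64 and 11.3 in Lepob/+, 5.71, 28.6, 10.03 and 27.1 in SOD1-G93A and 19.99, 29.1, 11.1 and 16.2 in SOD1-G93A Lepob/+. Oasl2 read 47.1, 57.5, 59.6 and 115.2 CPM in WT, 76.9, 145.1, 30.7 and 51.2 in Lepob/+, 22.8, 62.4, 65.2 and 116.1 in SOD1-G93A and 143.7, 111.6, 86.2 and 44.1 in SOD1-G93A Lepob/+. The log2 fold change of Oasl1 in SOD1-G93A against WT was 1.04 (SE 0.55, adjusted p = 0.9985), with WT 3 its lowest library. Oas1a, Oas2 and Oas3 spanned 10.3 to 131.6, 22.6 to 149.7 and 3.59 to 99.3 CPM. Oas3 had the widest range of any member, 27.7-fold from lowest to highest library.

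Gbp2, a guanylate-binding protein that attacks intracellular pathogens, was steadier. It read 79.4, 101.3, 91.8 and 107.0 CPM in WT, 121.2, 168.3, 64.4 and 154.6 in Lepob/+, 81.5, 117.2, 95.7 and 93.8 in SOD1-G93A and 118.9, 128.8, 123.2 and 85.3 in SOD1-G93A Lepob/+. Lepob/+ again held both ends, and Gbp3 spanned 36.0 to 135.2 CPM. Among other antiviral effectors, Ifitm3, a membrane protein that blocks viral fusion, had the highest level per length of the family, 381 CPM per kb of exon. It read 112.4, 290.6, 158.9 and 309.0 CPM in WT, 330.9, 658.1, 90.3 and 226.1 in Lepob/+, 138.3, 192.3, 192.1 and 220.6 in SOD1-G93A and 291.0, 449.7, 257.5 and 219.6 in SOD1-G93A Lepob/+. Relative to SOD1-G93A, SOD1-G93A Lepob/+ libraries had a log2 fold change of 0.71 (SE 0.48, unadjusted p = 0.156 by edgeR), and the ranges just overlapped. Trim30a, an interferon-induced ubiquitin ligase that dampens signalling by Toll-like receptors, read 57.1, 87.8, 34.5 and 70.8 CPM in WT, 81.3, 145.8, 63.7 and 62.7 in Lepob/+, 58.2, 208.7, 46.6 and 99.9 in SOD1-G93A and 68.5, 98.9, 48.7 and 63.2 in SOD1-G93A Lepob/+. Bst2, tetherin, which holds budding virus at the cell surface, spanned 67.8 to 335.5 CPM, and Rsad2, Cmpk2, Isg20 and Parp14 spanned 12.1 to 67.8, 13.8 to 68.1, 7.87 to 23.2 and 80.4 to 236.4 CPM.

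The chemokines Cxcl9 and Cxcl10, which draw activated T cells and neighbour each other on chromosome 5 (chr5:92346638-92348889 for Cxcl10, minus strand, GRCm38), did not follow the common pattern. Cxcl10 read 3.07, 4.87, 1.83 and 2.70 CPM in WT, 1.89, 2.47, 4.01 and 3.90 in Lepob/+, 3.11, 28.8, 1.45 and 4.89 in SOD1-G93A and 2.75, 2.70, 2.52 and 1.38 in SOD1-G93A Lepob/+. SOD1-G93A 2 stood alone, and the other 3 SOD1-G93A libraries lay within or next to the range of the other genotypes. Its log2 fold change was 1.62 (SE 0.71, unadjusted p = 0.0384 and adjusted p = 0.9985 by edgeR) in SOD1-G93A against WT, and -2.03 (SE 0.72, unadjusted p = 0.0132 and adjusted p = 0.261) in SOD1-G93A Lepob/+ against SOD1-G93A. Without SOD1-G93A 2 these were 0.00 and -0.43. Without Lepob/+ 4 and SOD1-G93A Lepob/+ 3 they were 1.59 (unadjusted p = 0.0569) and -2.05 (unadjusted p = 0.033).

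Cxcl9 read 42.5, 43.7, 56.5 and 42.4 CPM in WT, 42.6, 31.1, 41.1 and 51.5 in Lepob/+, 47.8, 69.4, 47.1 and 56.9 in SOD1-G93A and 38.5, 42.3, 45.0 and 41.3 in SOD1-G93A Lepob/+. Every SOD1-G93A library lay above every SOD1-G93A Lepob/+ library, the nearest pair being 47.1 and 45.0 CPM. Its log2 fold change there was -0.41 (SE 0.16, unadjusted p = 0.0252 and adjusted p = 0.262 by edgeR). Psmb8 read 158.3, 155.0, 85.9 and 101.6 CPM in WT, 87.7, 135.7, 162.1 and 93.2 in Lepob/+, 148.3, 205.0, 76.2 and 152.8 in SOD1-G93A and 85.9, 105.9, 90.5 and 78.8 in SOD1-G93A Lepob/+. It had a log2 fold change of -0.69 (SE 0.29, unadjusted p = 0.0317 and adjusted p = 0.27) in SOD1-G93A Lepob/+ against SOD1-G93A. Without Lepob/+ 4 and SOD1-G93A Lepob/+ 3 the values were -0.68 (unadjusted p = 0.058) for Psmb8 and -0.43 (unadjusted p = 0.0214) for Cxcl9. For the 3 members lower at an unadjusted p under 0.05 in that comparison, 12.3% of all genes were also lower at that threshold.

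The 6 libraries high in lymph node genes are where Psmb8 was high: 148.3 to 205.0 CPM there against 76.2 to 135.7 in the other 10. Irf1 was likewise 54.1 to 139.0 against 34.3 to 53.4 CPM. These were the only members of 39 whose values did not overlap between the 2 sets (5.13% against 15.5% of all genes). With the level of the lymph node list as a covariate, Psmb8 had a log2 fold change of -0.02, Cxcl10 -0.62 and Cxcl9 -0.39 in SOD1-G93A Lepob/+ against SOD1-G93A. None of these had an unadjusted p under 0.05 by edgeR in that fit, where 4.03% of all genes did. All 4 SOD1-G93A Lepob/+ libraries were low in lymph node genes and 3 of 4 SOD1-G93A libraries high, so the genotypes and this tissue are partly confounded.

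**Figure D5:**
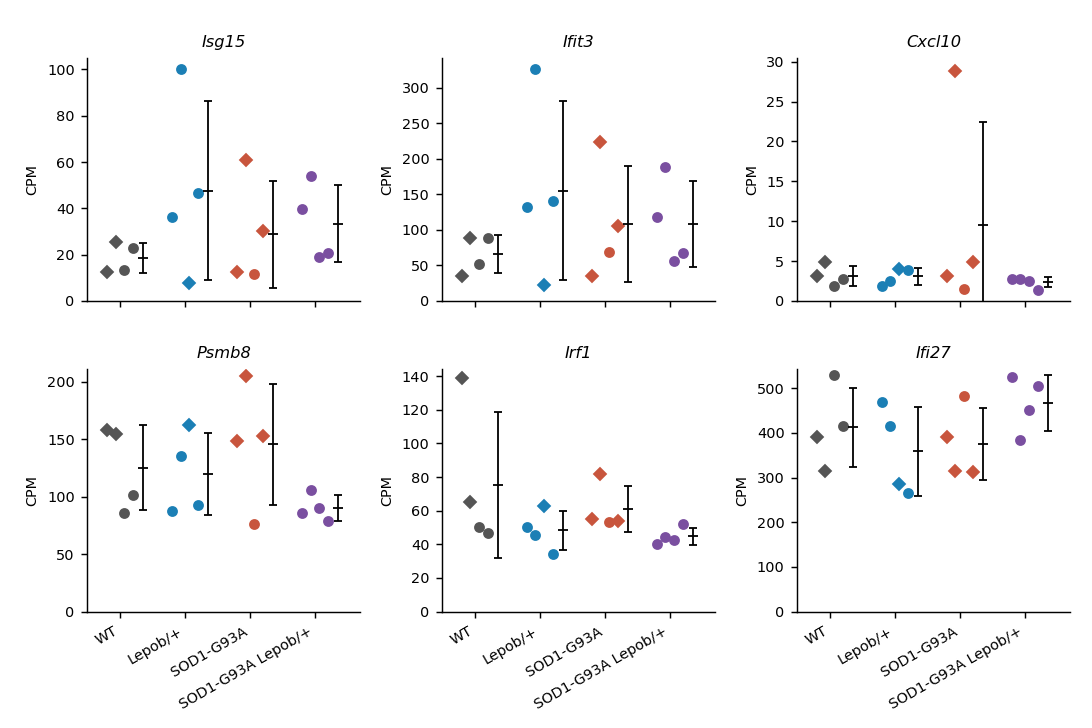
CPM of 6 members by genotype. Points are libraries, diamonds the 6 libraries high in lymph node genes, and black bars the mean ± SD (n = 4, the lower bar of Cxcl10 in SOD1-G93A cut at 0). Isg15 and Ifit3 peak in Lepob/+ 2, Cxcl10 in SOD1-G93A 2, and Psmb8 and Irf1 are higher in the diamonds.

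The last group holds interferon-induced genes of less settled function. Ifi44 read 6.44, 18.3, 7.21 and 12.8 CPM in WT, 22.1, 55.5, 5.42 and 19.1 in Lepob/+, 6.20, 27.7, 8.17 and 16.9 in SOD1-G93A and 17.5, 27.7, 6.69 and 13.5 in SOD1-G93A Lepob/+. It followed the common pattern, with a log2 fold change of 1.19 (SE 0.65, adjusted p = 0.9997) in Lepob/+ against WT, which was 0.48 without Lepob/+ 2. Ifi27 did not: it read 390.9, 314.3, 529.6 and 415.3 CPM in WT, 469.1, 416.1, 285.6 and 265.0 in Lepob/+, 390.3, 315.7, 482.5 and 312.4 in SOD1-G93A and 525.6, 383.8, 452.5 and 505.4 in SOD1-G93A Lepob/+. With 2.00-fold from lowest to highest library it had the smallest ratio of highest to lowest library of any member. Its log2 fold change in SOD1-G93A Lepob/+ against Lepob/+ was 0.38 (SE 0.22, adjusted p = 0.662), the smallest p of any member there. Ifi35, Xaf1 and Rtp4 spanned 45.4 to 92.6, 21.4 to 63.8 and 6.92 to 33.8 CPM.

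Per kb of exon, Ifitm3 (381 CPM per kb), Ifi27 (275) and Bst2 (156) were the most abundant members over the 16 libraries, and Cxcl10 (2.01), Mx2 (2.45) and Ifi44 (2.77) the least.

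The ligands themselves were nearly absent. Of 21 interferon genes, only Ifng had enough counts to test, with 126 counts over 15 libraries. Ifnb1 had 24 counts in 7 libraries and the zeta gene Ifnz 32 in 13. Of the 13 interferon alpha genes 11 had 0 counts, and Ifna6 and Ifna9 had 1 and 2. Ifng, made by T and NK cells, had a log2 fold change of -0.82 (SE 0.99) in SOD1-G93A Lepob/+ against SOD1-G93A.

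The other genes of the pathway gave these counts at an unadjusted p under 0.05 in SOD1-G93A Lepob/+ against SOD1-G93A: 2 of 11 receptors, kinases and STATs, 3 of 14 induction sensors and adaptors, 4 of 10 negative regulators and 6 of 26 interferon gamma-responsive genes, all lower, and 11 of 48 other interferon-stimulated genes, of which 8 were lower. Over all genes 16.5% passed that threshold and 12.3% were lower. None passed an adjusted p of 0.05. Ifnar1, a chain of the type I receptor, averaged 36.7 ± 2.39 CPM (SD, n = 4) in SOD1-G93A Lepob/+ and 48.4 ± 5.85 in SOD1-G93A, a log2 fold change of -0.40 (SE 0.15). Irf8, a factor of dendritic and B cells, averaged 25.8 ± 4.21 and 99.1 ± 57.6 CPM, a log2 fold change of -1.94 (SE 0.65). Ciita, the master regulator of MHC class II, averaged 18.3 ± 3.61 and 73.6 ± 44.9 CPM (log2 fold change -2.01, SE 0.65). Ptpn6, a phosphatase of blood cells, averaged 26.9 ± 8.02 and 99.0 ± 58.1 CPM (log2 fold change -1.88, SE 0.59). In SOD1-G93A 3, the SOD1-G93A library low in lymph node genes, Irf8, Ciita and Ptpn6 read 23.96, 20.41 and 25.4 CPM. These values lay within the SOD1-G93A Lepob/+ ranges of 21.18 to 30.2, 14.13 to 22.65 and 20.45 to 37.47 CPM. SOD1-G93A 1, 2 and 4 read 98.53 to 163.9, 66.34 to 129.7 and 95.91 to 167.1 CPM. Ifnar1 differed: it read 40.97 CPM in SOD1-G93A 3, above the SOD1-G93A Lepob/+ range of 33.54 to 38.77 CPM. It read 47.53 to 55.02 CPM in SOD1-G93A 1, 2 and 4. In the same comparison 16 of 16 T cell genes were lower at an unadjusted p under 0.05, with a median log2 fold change of -5.86. The part of lymph node tissue in the pathway counts was not tested.

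Ifitm2, a neighbour and relative of Ifitm3, had a higher estimate in SOD1-G93A Lepob/+ than in SOD1-G93A, unlike Ifnar1, Irf8, Ciita and Ptpn6. It averaged 170.9 ± 42.1 CPM in WT, 122.7 ± 61.6 in Lepob/+, 79.2 ± 34.4 in SOD1-G93A and 218.7 ± 13.4 in SOD1-G93A Lepob/+ (SD, n = 4 each). Its log2 fold change was -1.11 (SE 0.34, unadjusted p = 0.00549 and adjusted p = 0.9985) in SOD1-G93A against WT and 1.47 (SE 0.34, unadjusted p = 0.000737 and adjusted p = 0.261) in SOD1-G93A Lepob/+ against SOD1-G93A, by edgeR. The interaction was 1.94 (SE 0.48, unadjusted p = 0.00114 and adjusted p = 0.564). Ifitm2 and Ifitm3 are close in sequence, so reads they share are not counted in either where only unique matches are kept.

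When limma's voom with quality weights was used in place of edgeR, 3 members passed an adjusted p of 0.05 in SOD1-G93A Lepob/+ against SOD1-G93A, where 31.7% of all genes did: Psmb8 (log2 fold change -0.81, adjusted p = 0.00751), Cxcl9 (-0.43, adjusted p = 0.0143) and Ifi27 (0.47, adjusted p = 0.0267). DESeq2 on the 8 libraries of that comparison called 0 members, where 8.9% of all genes passed, and 5 members (of 39) had an unadjusted p under 0.05, where 24.7% of all genes did.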

How the data were processed

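RNA-seq counts per gene from 16 iWAT libraries were used. The authors deposited raw counts of reads per Ensembl gene, made, per the labels, with HISAT2 (2.1.0, mouse genome build mm10) and featureCounts (2.0.2), and uniquely mapped reads only were kept. The labels and the methods name different library kits, and the strand setting of the counting is not given in the sources used here. Groups came from the sample titles. IDs were matched to GENCODE M21 symbols (54723 of 54752). Genes were filtered with filterByExpr (minimum count 10, minimum total 15), scaled by TMM and tested with edgeR (4.0.16) across all 16 libraries, adjusted by Benjamini-Hochberg over 19736 genes, 2-sided. DESeq2 (1.42.0) and limma (3.58.1) were alternatives, in R (4.3.3). The code was tested on simulated data. Values per library for 20 members were given by a rule: the 4 smallest p-values in each comparison and the highest mean in each role. Up to 3 genes of each other pathway list were named by smallest p. The members and lists were chosen with earlier results of these data known. Library totals were 36795376 to 61886313 counts.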

Additional observations from a re-analysis of the deposited data

Results flagged for a closer look

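In 5 of 156 groups of 4 libraries (39 members in 4 genotypes, 3.21%), 1 library stood far from the other 3 by Dixon's criterion, where chance flags about 1 in 20 groups. Irf1 was at 81.5 CPM in SOD1-G93A 2 against 53.4 to 54.7 in the other SOD1-G93A libraries. Oasl1 was at 28.4 CPM in Lepob/+ 2 against 9.64 to 11.3. Cxcl9 was at 56.5 CPM in WT 3 against 42.4 to 43.7. Cxcl10 was at 1.38 CPM in SOD1-G93A Lepob/+ 4 against 2.52 to 2.75. Ifi35 was at 51.0 CPM in SOD1-G93A Lepob/+ 3 against 62.6 to 62.9, and this is the library that goes against its label of female.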

How the results depend on the processing

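No member passed an adjusted p of 0.05 in any comparison under any edgeR or DESeq2 alternative or when any 1 library was left out. With voom and quality weights 3 passed for SOD1-G93A Lepob/+ against SOD1-G93A: Cxcl9 (-0.43), Psmb8 (-0.81) and Ifi27, the last with a higher estimate. Members at an unadjusted p under 0.05 moved as follows, with the share of all genes in the same fit in parentheses. For Lepob/+ against WT, from 0, there was 1 with no filter (3.96%), with a filter of 1 CPM in 4 libraries (3.97%) and with DESeq2 on the compared genotypes (1.85%), 2 with DESeq2 on all libraries (3.7%), 3 with voom (6.29%) and 5 under a replicate block (2.1%). For SOD1-G93A against WT, from 1, there were 4 with the block (1.95%). There were 0 with edgeR (2.34%) or DESeq2 (3.64%) on the compared genotypes and with the lymph node list as a covariate (2.99%). There were also 0 without Lepob/+ 4 and SOD1-G93A Lepob/+ 3 (3.08%), and without Lepob/+ 2 and SOD1-G93A 2 (1.14%). For SOD1-G93A Lepob/+ against SOD1-G93A, from 3, there were 5 with edgeR (21.3%) or DESeq2 (24.7%) on the compared genotypes, and 1, Irf9, with the covariate (4.03%) and without Lepob/+ 2 and SOD1-G93A 2 (7.42%). For the interaction, from 0, there were 3 with the block (4.91%) and 1 with DESeq2 on all libraries (10%). The cause was not tested.

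Leaving out 1 library gave 0 to 16 members for Lepob/+ against WT (16 without Lepob/+ 3, 11.4%). For SOD1-G93A against WT it gave 0 to 4 (4 without SOD1-G93A 1, 2.07%, or 3, 7.67%). For SOD1-G93A Lepob/+ against SOD1-G93A it gave 1 to 4 (4 without WT 1, 15.7%, or SOD1-G93A 3, 28%). Against Lepob/+ it gave 0 to 1 (1 without Lepob/+ 1, 12.3%), and for the interaction 0 to 5 (5 without SOD1-G93A 3, 16.2%). In the same order, the member medians ranged from 0.14 to 0.74, from -0.04 to 0.58, from -0.29 to 0.36, from -0.38 to 0.15 and from -0.83 to -0.17. Without Lepob/+ 2 and SOD1-G93A 2, a choice made after seeing the data, the interaction median was 0.17, and Ifi44 in SOD1-G93A Lepob/+ against Lepob/+ turned from -0.645 to 0.068, and leaving out 1 library gave -1.024 to 0.071 (without Lepob/+ 2). Over all genes, 5 of 24 same-numbered pairs correlated above 0.1 and 8 below -0.1 (-0.694 to 0.52). Pairs with different numbers are not given here, so these values cannot decide whether the numbers pair the mice. The numbers were not taken to pair them. WT with SOD1-G93A gave 0.412, 0.407 and 0.52 for numbers 1 to 3 and -0.312 for 4, and replicate 2 had the highest member mean in all 4 genotypes. The replicate block changed no adjusted call.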

Other observations

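Among the 48 other interferon-stimulated genes tested, 42 had higher estimates in Lepob/+ than in WT and 39 in SOD1-G93A than in WT. Of all 19736 genes tested, 10969 and 10459 did. The medians of the 48 were 0.28 and 0.31 on the log2 scale beside 0.03 and 0.02 over all genes. Both comparisons share the WT libraries. Like the members, these genes had their highest mean levels in SOD1-G93A 2 (6.339 log2 CPM) and Lepob/+ 2 (6.305). Of the 48, 1 had an unadjusted p under 0.05 in Lepob/+ against WT by edgeR, where 4.37% of all genes passed. This was Tor3a, an ATPase of the endoplasmic reticulum lumen, at 47.9 ± 11.4 CPM (SD, n = 4) in Lepob/+ and 31.7 ± 6.64 in WT. Its log2 fold change was 0.60 (SE 0.25, unadjusted p = 0.030 and adjusted p = 0.9997 by edgeR). It read 64.7 CPM in Lepob/+ 2 and 39.9 to 43.9 CPM in the other Lepob/+ libraries. In the promoter windows of other interferon-stimulated genes the response element was present in 21 of 40 (52.5%) and the gamma-activated site in 3 of 40, whereas in the interferon gamma-responsive genes they were present in 11 of 17 (64.7%) and 7 of 17 (41.2%).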
